A study of Mus musculus with 22 samples.

Results

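The loops described here are 754 chromatin loops that carried no category in the deposited loop table although both of their anchors lay next to anchors of CTCF loops. They were chosen by position alone: the category was "others", and the midpoint of each anchor lay within 20 kb of an anchor midpoint of a structural or dual-function loop on the same chromosome. Structural loops have CTCF and cohesin at both anchors, dual-function loops have in addition cis-regulatory elements (CREs) at both, and CRE loops have them at both anchors with CTCF and cohesin at 1 anchor at most. The 754 loops were 21.4% of the 3521 uncategorised loops and 4.61% of all 16370 loops. Of the other uncategorised loops, 1651 had 1 anchor next to a CTCF loop anchor and 1116 had none.

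The cells were G1E-ER4, a mouse erythroblast line derived from GATA1-null G1E cells, in which both CTCF alleles were fused to an auxin-inducible degron (AID) and mCherry. They expressed the plant ubiquitin ligase adaptor OsTiR from a retrovirus, in the ana/telophase samples with a GFP tagged by a mitotic degron (MD), so that auxin led to loss of CTCF. Cells were held in prometaphase with 200 ng/ml nocodazole and sorted on release (0 min, prometaphase) or 30 min (ana/telophase), 60 min (early-G1) or 120 min (mid-G1) later; the protocol text gives 25 min where the labels give 30. The +auxin cells received auxin during the last 4 h of the arrest and after release, and the -auxin cells had the same alleles, vector and arrest without it. The 18 in situ Hi-C libraries, 3 per treatment in mid-G1 and 2 per treatment at the earlier stages, were merged into 8 contact maps before loops were measured.

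A CTCF loop arises in the loop extrusion model when cohesin enlarges a loop of chromatin until it meets CTCF, which halts it most effectively when the CTCF motif points into the loop. A pair of motifs that face each other, one on the forward strand at the upstream anchor and one on the reverse strand at the downstream anchor, is therefore the usual arrangement at such loops. Mitotic chromosomes lack most of these loops, and they form again as cells exit mitosis. In a contact map a loop is a spot of raised contact frequency that usually covers several pixels, and nearby CTCF sites can give several spots close together.

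Sequences are shown first for the 3 strongest loops (in mid-G1 -auxin cells) among the 22 that held motif matches in this convergent arrangement, because they held the motif near both anchors, in the 30 kb centred on each anchor midpoint. Outside the 10 kb anchor bin itself lay both matches of the chromosome 6 loop, at -5.72 (upstream anchor) and -13.9 kb (downstream anchor) from the midpoint of the bin, and the downstream match of the last loop listed, at 14.2 kb. Capitals mark the 12-letter CTCF core consensus motif, lower case the 9 flanking bases on each side, and each run reads 5′ to 3′ on the strand of the motif. Coordinates are mm9 (NCBIM37 assembly) and sequences were read from that genome.
chr1:156635375-156635404, forward strand, intergenic, upstream anchor: ccaactttgCCAGCAGGTGGCagcacgtgc
chr1:156830506-156830535, reverse strand, intergenic, downstream anchor: gtaagaaggCCACCAGGGGGCtggtgacaa
chr6:88499268-88499297, forward strand, Kbtbd12 intron, upstream anchor: tggttctggCCAGCAGGTGGCgataaaagc
chr6:88811128-88811157, reverse strand, Podxl2 intron, downstream anchor: tcatctaaaCCACCAGGGGGCttcatctcc
chr1:90330829-90330858, forward strand, intergenic, upstream anchor: tcatggaagCCAGCAGAGGGCggtgaatcc
chr1:90639145-90639174, reverse strand, intergenic, downstream anchor: ttctcctcaCCACCAGGGGGCaggtctccc

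The loop on chromosome 1 that joined the first pair, chr1:156630001-156640000 with chr1:156830001-156840000, had strengths of 1.5, 1.80, 3.02 and 3.94 in -auxin cells, listed here and below in the order prometaphase, ana/telophase, early-G1, mid-G1. With auxin the 4 values were 0.715, 1.35, 1.22 and 1.82, all lower. Loop strength compares the contacts seen with those of the local background, as a mean of the ratio over a block of 9 pixels around the summit, so that 1 means no enrichment. The loop at Kbtbd12 and Podxl2 went from 1.09 to 3.76 between prometaphase and mid-G1 without auxin and from 1.23 to 2.09 with it, and the other chromosome 1 loop from 1.12 to 3.42 without and from 1.41 to 1.37 with auxin. In mid-G1 each of the 3 was weaker than the structural loop nearest to it, which had strengths of 6.07, 4.58 and 4.79 in -auxin cells.

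A second set of sequences is shown because the match lay in the 30 kb around an anchor of a named loop described below, or of the CTCF loop beside it. Only matches facing into the loop are printed, and not all of these. Left out is, for one, a reverse match at chr8:48031718-48031747, at the downstream anchor of the structural loop beside the gene-free chromosome 8 loop. The Cd36 loop held a reverse match at its own upstream anchor and the Rpl34 to Hadh loop a forward match at its own downstream anchor, both facing away. Outside the 10 kb anchor bin lay the matches at Kif5c (5.13 kb from the midpoint), Galntl6 (-5.60 kb), Cd36 (7.19 kb) and Hadh (5.59 kb).
Scarb1 intron, chr5:125776963-125776992, reverse strand, downstream anchor of the Tctn2 to Scarb1 loop: ctgaggaggCCAGCAGAGGGCgtcagatca
Intergenic, chr5:125752068-125752097, reverse strand, downstream anchor of the structural loop beside it: cagtattgaCCACTAGAGGGCggtttgcac
Kif5c intron, chr2:49590111-49590140, reverse strand, downstream anchor of the Orc4 to Kif5c loop: tatgtttaaCCACCAGAGGGCagccttgca
Galntl6 intron, chr8:60279390-60279419, reverse strand, downstream anchor that the Galnt7 to Galntl6 loop shared with the structural loop beside it: aagaaatggCCACCAGAGGGCagcactaga
Cd36 intron, chr5:17322176-17322205, forward strand, upstream anchor of the structural loop beside the Cd36 loop: aacatcaaaCCAGTAGATGGCgctcaggaa
Hadh exon, chr3:130950576-130950605, reverse strand, downstream anchor of the structural loop beside the Rpl34 to Hadh loop: gtgtgacctCCACCAGGGGGCaaactgtga
Mon2 intron, chr10:122442450-122442479, reverse strand, downstream anchor of the structural loop beside the Ppm1h to Mon2 loop: acagtttgaCCACTAGATGGCtctcttgct

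Without auxin the 754 loops were re-formed step by step after mitosis. The median strength was 1.08 during arrest, reached 1.60 at ana/telophase and 1.93 at early-G1, and ended at 2.13. With auxin the medians were 1.02, 1.23, 1.35 and 1.39, so that in mid-G1 the upper quartile of the +auxin values (1.63) lay below the lower quartile of the -auxin values (1.69). In mid-G1 the SD of the medians of 20 chromosomes was 0.164 without and 0.0915 with auxin. The median log2(+auxin / -auxin) of single chromosomes was below 0 for all of them from ana/telophase on. In prometaphase it ran from -0.19 to 0.31. The loop table used here holds 1 value per loop and condition, from merged replicates, so no error between cultures is given and no test between treatments or stages was run. The SD over chromosomes describes spread across the genome only.

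**Figure D1:**
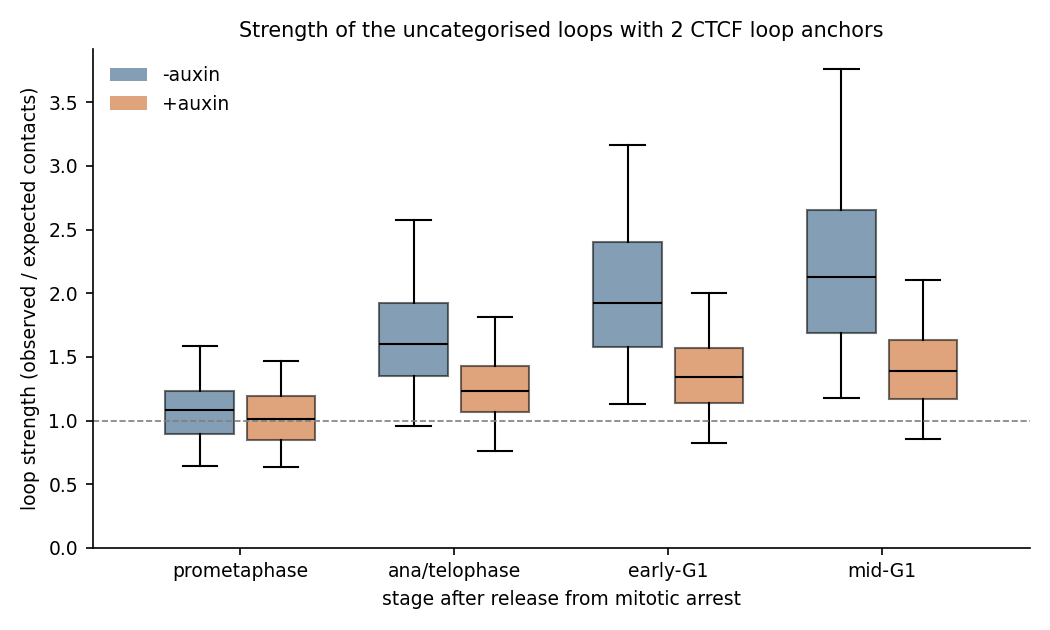
Loop strength (observed over expected contacts) of the 754 loops at 4 stages in -auxin and +auxin cells, with boxes from quartile to quartile, a line at the median, whiskers from the 5th to the 95th percentile and a dashed line at a ratio of 1. The -auxin medians climb from 1.08 to 2.13 and the +auxin medians from 1.02 to 1.39.

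By ana/telophase the -auxin median had covered 49.7% of the distance between its prometaphase and mid-G1 values, and by early-G1 80.9%. The same percentages were 44.7% and 76.6% for structural loops, 64.9% and 98.6% for dual-function loops, and 57.8% and 89.4% for all loops. Most of the 754 loops (538, 71.4%) had their highest -auxin strength in mid-G1, while 187 peaked in early-G1, 24 in ana/telophase and 5 in prometaphase. No share of all loops is set beside these counts, so they mark no trait of the 754 loops. The order of first detection followed: of the -auxin maps, ana/telophase was the first to hold a call for 59, early-G1 for 270 and mid-G1 for 390, and prometaphase for 0 of 754. These were 7.82%, 35.8% and 51.7% of the 754, against 17.7%, 34.2% and 33.5% of all loops. The mid-G1 map merged 3 libraries and the earlier ones 2, so stage and number of libraries cannot be told apart in this order. The prometaphase count of 0 allows a share of up to 0.507% (95% Wilson interval, counting error only, like every interval below). It is not particular to these loops: among all loops, too, the later stages took up nearly all first calls without auxin.

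The change with auxin deepened with time. The median log2(+auxin / -auxin) of strength was -0.06 ± 0.11 in prometaphase, -0.37 ± 0.10 at ana/telophase, -0.52 ± 0.10 at early-G1 and -0.62 ± 0.13 at mid-G1 (± SD over the medians of 20 chromosomes). The lowest chromosome median in mid-G1 was -0.87, on chromosome 8, and the highest -0.43, on chromosome 19, so every chromosome median was below 0. Over all loops the median was -0.04, -0.21, -0.32 and -0.38 at the 4 stages. Structural loops stood at -0.87 in mid-G1, dual-function loops at -0.44, uncategorised loops with 1 CTCF loop anchor at -0.30, those with none at -0.13 and CRE loops at -0.02.

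**Figure D2:**
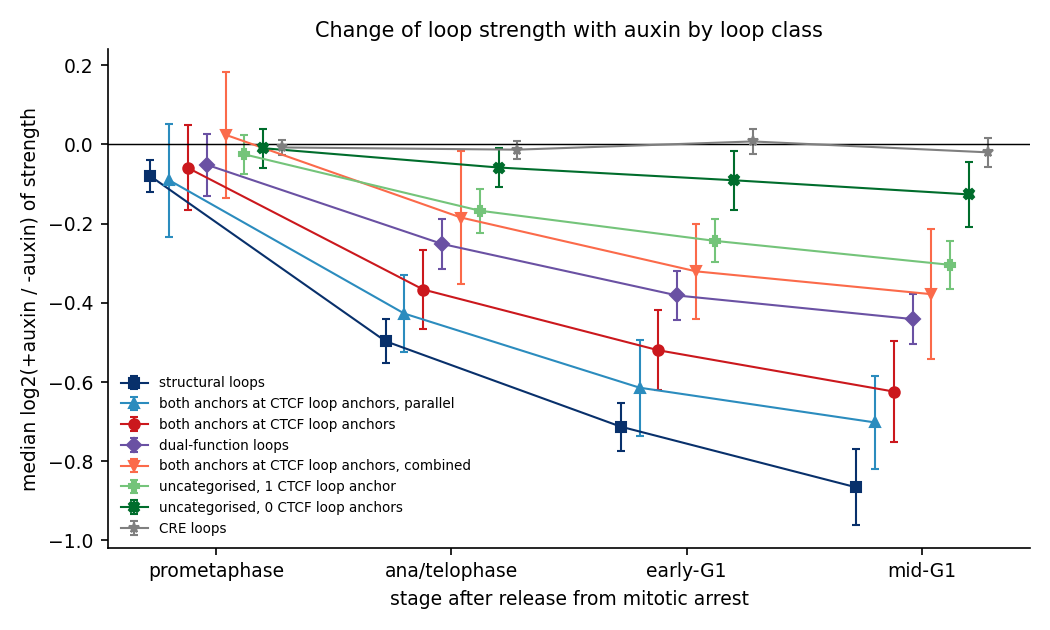
Median log2(+auxin / -auxin) of loop strength per class and stage, with the SD over chromosome medians as error bars; the 754 loops are also drawn apart as those beside both anchors of 1 CTCF loop (parallel, -0.70 in mid-G1) and those between different CTCF loops (combined, -0.38). In mid-G1 the 754 loops (red circles, -0.62) lie between structural loops (-0.87) and dual-function loops (-0.44), and uncategorised loops without a CTCF loop anchor (-0.13) and CRE loops (-0.02) lie near 0.

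Counted loop by loop, 573 of 754 (76.0%, interval 72.8% to 78.9%) were weaker with auxin by at least 0.32 on the log2 scale in mid-G1, the threshold used for every count of weaker or stronger loops, against 54.1% of all loops. Only 12 (1.59%, 0.913% to 2.76%) were stronger by as much, against 8.2% of all loops. With the median change of all loops subtracted, the shares were 42.2% weaker and 8.89% stronger, against 30.3% and 26.7% of all loops. In ana/telophase 417 (55.3%) were weaker and 10 stronger, beside 39.1% and 5.14% of all loops, and in early-G1 532 (70.6%) and 14, beside 49.5% and 8.16%. In prometaphase the counts of 205 weaker (27.2%) and 119 stronger (15.8%) were near those of all loops, 23.1% and 16.8%.

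Loop calls deposited with the table went the same way, being made from the same maps. Each loop entered the table through a call in some map, and most of the 754 through -auxin maps alone. Neither the calls nor the shares weaker with auxin are therefore independent of how the loops were chosen. Of the 754 loops 687 (91.1%, interval 88.9% to 92.9%) were detected without auxin alone, 32 (4.24%) under both treatments and 35 (4.64%) with auxin alone. The same shares of all loops were 71.1%, 14.4% and 14.6%. The calls depend on a threshold: when a loop counted as present at a strength of at least 1.5 in some post-mitotic map, 40.6% were present without auxin only, 46.2% in both, 1.33% with auxin only and 11.9% in neither, against 30.5%, 48.6%, 4.69% and 16.2% of all loops.

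Up to 400 kb, longer loops were stronger and weakened more, and beyond that the median change stayed level. The 181 loops of up to 100 kb stood at 1.55 in mid-G1 -auxin and 1.18 in mid-G1 +auxin cells (medians), and changed by -0.42 in log2. For the 210 loops over 100 and up to 200 kb the medians were 2.1, 1.4 and -0.56, for the 239 over 200 and up to 400 kb 2.45, 1.48 and -0.74, and for the 124 longer ones 2.71, 1.60 and -0.74. The shares weaker by the threshold were 62.4%, 73.3%, 87.0% and 79.0%, against 43.2%, 54.8%, 60.5% and 55.9% of all loops in the same ranges. Structural loops in the same 4 size ranges had median changes of -0.60, -0.79, -0.96 and -1.01, and all loops of -0.24, -0.38, -0.50 and -0.41. The median size of the 754 loops was 200 kb, with quartiles of 110 and 330 kb and a range from 70 to 1980 kb, close to the 220 kb of all loops.

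The 754 loops fell into 2 kinds by the CTCF loops around them. Parallel loops, 535 (71.0%), had both anchors within 20 kb of both anchors of 1 and the same CTCF loop, their partner, which was a structural loop for 439 and a dual-function loop for 96. This share rests on the 20 kb limit: with CTCF loop anchors sought within 15 kb, 149 loops were left and 0 of them were parallel. Combined loops, 219 (29.0%), joined anchors that belonged to different CTCF loops. The nearest partners of the parallel loops were 482 distinct CTCF loops, and 46 of these were the partner of more than 1 of them. The 754 loops share sequence in other ways too: 162 shared an anchor midpoint with another of the 754, and a median of 4 CTCF loops, at most 12, met their anchors.

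No parallel loop lay closer than 17.7 kb to the summit of its partner in the plane of the contact map. Pixels within 20 kb were merged into 1 loop when the loops were called, and CTCF was sought up to 15 kb from an anchor midpoint when they were categorised. For 547 loops the farther anchor lay exactly 20 kb from the nearest CTCF loop anchor, for 58 at 17.5 kb, and for 149 at 12.5 kb or less. For 450 loops the nearer anchor had the very midpoint of a CTCF loop anchor. Among the 517 parallel loops with 10 kb summits on both sides, the commonest shift was 20 kb at 1 anchor and none at the other: 158 were shifted only at the upstream anchor and 132 only at the downstream one.

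**Figure D3:**
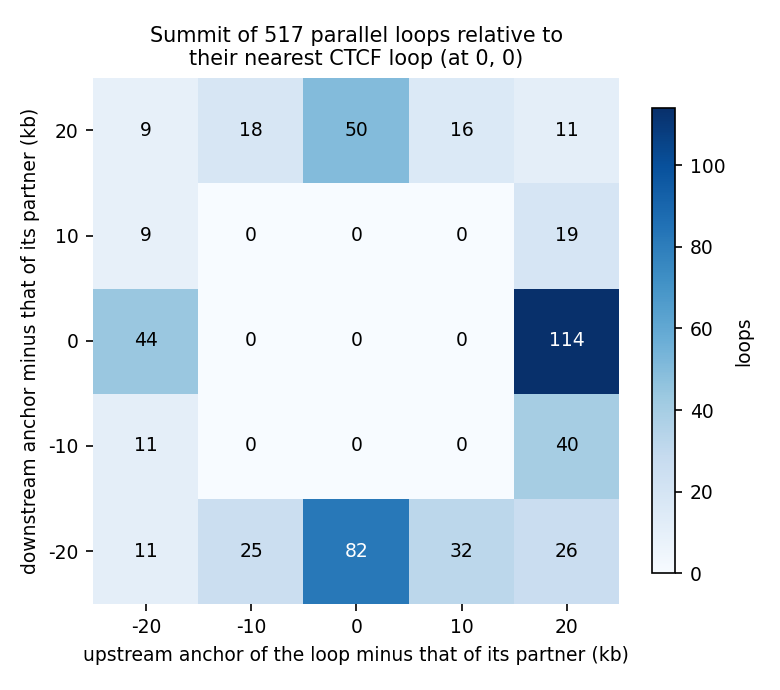
Position of 517 parallel loops with 10 kb summits relative to their nearest CTCF loop, which sits at 0, 0, with the shift of the upstream anchor on the x axis, that of the downstream anchor on the y axis (both in kb) and the number of loops in each cell. The outer ring holds all of them, with 114 shifted 20 kb downstream at the upstream anchor alone and 82 shifted 20 kb upstream at the downstream anchor alone.

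Parallel loops were more often shorter than longer than their partner. Of the 535, 352 (65.8%, interval 61.7% to 69.7%) were shorter than the partner, 161 (30.1%) longer and 22 of the same size. Among the 517 with 10 kb summits on both sides, 294 (56.9%) lay within the span of the partner. Median mid-G1 strength without auxin was 2.21 for the shorter and 2.40 for the longer loops, while their partners had medians of 2.93 and 2.73. The median log2 change in mid-G1 was -0.69 for the shorter and -0.79 for the longer loops, and -1.04 and -0.98 for their partners.

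Parallel loops followed their partner at a lower amplitude. Their median strength in mid-G1 was 2.25 without and 1.38 with auxin, against 2.90 and 1.45 for the partner (counted once per parallel loop). In mid-G1 -auxin cells 441 of 535 (82.4%) were weaker than the partner, and with auxin this held for 306 (57.2%). The median log2 change was -0.70 for the parallel loops and -1.02 for their partners, and for 433 (80.9%) the change was less negative than that of the partner. Across the 535 pairs Spearman's rho of the mid-G1 change was 0.74, and of the -auxin strength 0.76. In prometaphase, where loops were faint, the rho of the change was 0.28.

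These pairs are not independent measurements. The 9 pixels averaged for a loop and for its partner overlapped in every one of the 517 pairs with 10 kb summits, by 3 pixels in 290 pairs, 2 in 170 and 1 in 57, and both loops come from the same maps. With 1 shared pixel the rho of the mid-G1 change was 0.77 and the medians were -0.56 for the loops and -0.93 for their partners. With 3 shared pixels they were 0.76, -0.75 and -1.05. Among the 511 parallel loops called in -auxin cells only, the partner was called in the same way for 468 (91.6%), near the 480 of 535 (89.7%) over all pairs. Of the 12 parallel loops called in both treatments the partner was called in -auxin cells only for 8 and in both for 4, and of the 12 called in +auxin cells only the partner fell 4 times into each of the 3 kinds of call.

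**Figure D4:**
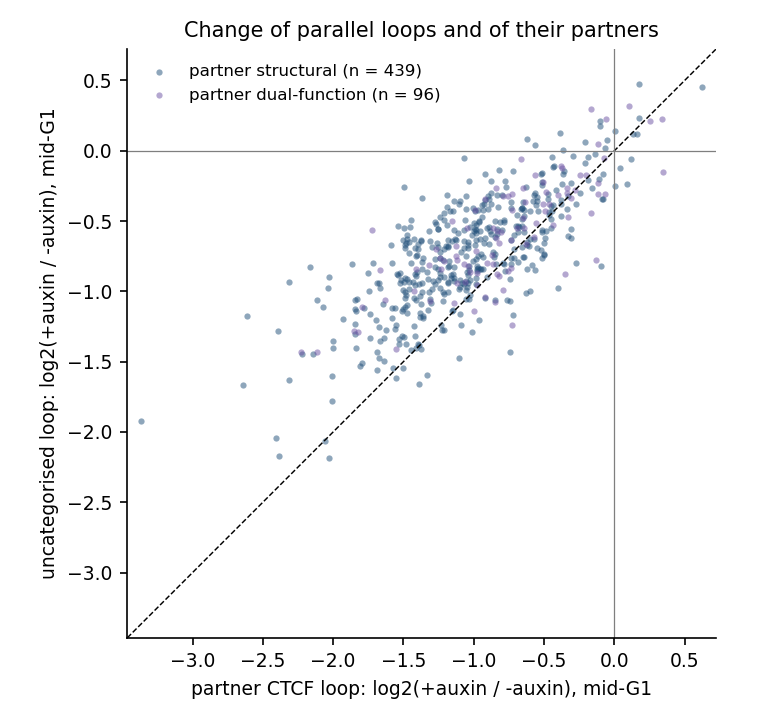
Mid-G1 log2(+auxin / -auxin) of 535 parallel loops (y axis) against that of their nearest CTCF loop (x axis), 1 point per loop, coloured by the partner's category. The dashed line marks equal change, 80.9% of the points lie above it, and Spearman's rho is 0.74 with pixels shared within pairs.

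Combined loops were fainter and changed less. Their median -auxin strength was 1.06, 1.47, 1.67 and 1.82 at the 4 stages, against 1.09, 1.63, 2.03 and 2.25 for the parallel loops, and the +auxin medians in mid-G1 were alike at 1.39 and 1.38. The median log2 change in mid-G1 was -0.38 ± 0.16 (SD over chromosome medians), equal to that of all loops, and 124 of 219 (56.6%) were weaker by the same threshold, near the 54.1% of all loops. Of the 219, 176 (80.4%) were detected without auxin alone, 20 under both treatments and 23 (10.5%) with auxin alone. The shares of all loops were 71.1% without and 14.6% with auxin alone, and of the parallel loops 95.5% and 2.24%.

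The anchors of the 219 combined loops met CTCF loops in several ways. For 117 the upstream anchor lay at the upstream anchor of 1 CTCF loop and the downstream anchor at the downstream anchor of another. For 56 no CTCF loop had its upstream anchor at theirs, and for 55 none had its downstream anchor at theirs. In 31 combined loops (14.2%) a chain of CTCF loops that met end to end linked the anchors, as it did in 63 parallel loops (11.8%). The 31 combined ones were longer, with a median of 400 kb, and their mid-G1 medians were 2.40 in -auxin and 1.53 in +auxin cells, a median change of -0.44. The other 188 had medians of 1.79, 1.38 and -0.36.

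The number of CTCF loops at the anchors moved with the change. The 186 loops whose anchors met 1 or 2 CTCF loops had a median log2 change of -0.49 in mid-G1, the 401 with 3 to 5 of -0.63 and the 167 with 6 or more of -0.70. Median size moved with it, from 150 to 200 and 240 kb, and its part in this was not tested. Summit width did so too: the 686 loops with 10 kb summits had a median change of -0.64 and the 68 with 25 kb summits of -0.40, and 11 of the latter (16.2%) were called in +auxin cells only, near the 14.6% of all loops.

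The 4 strongest loops in mid-G1 -auxin cells belonged to both kinds. The strongest joined chr5:17290001-17300000, at an exon of Cd36, which encodes a fatty acid scavenger receptor, with the gene-free bin chr5:17940001-17950000. Its strength was 0.782, 1.3, 3.70 and 7.69 at the 4 stages without auxin and 0.704, 1.5, 2.14 and 1.84 with it, a log2 change of -2.06 in mid-G1. The +auxin values were lower from early-G1 on, and the structural loop beside it also changed by -2.06.

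The second joined the start of Tctn2, a gene of the ciliary transition zone, at chr5:125040001-125050000 with Scarb1, the receptor for high-density lipoprotein, at chr5:125770001-125780000. Its strength rose from 1.42 over 4.31 and 6.10 to 6.73 without auxin and from 1.85 over 2.18 and 3.96 to 4.36 with it. It was called in both treatments, first in early-G1 without and in mid-G1 with auxin. The partner, whose summit lay 20 kb inside it at either end, went from 10.1 to 4.61 in mid-G1, and the Scarb1 match printed above lay 1.98 kb from the midpoint of the loop's own anchor.

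The third, a combined loop, joined Orc4, a subunit of the origin recognition complex, at chr2:48780001-48790000 with the kinesin gene Kif5c at chr2:49580001-49590000. Its values were 0.609, 2.94, 5.78 and 6.40 without and 2.08, 1.95, 2.73 and 3.83 with auxin. In prometaphase the +auxin map was thus the higher one, and later the lower one. The fourth joined the start of Rpl34, a ribosomal protein gene, at chr3:130430001-130440000 with Hadh, a mitochondrial enzyme of fatty acid oxidation, at chr3:130930001-130940000, and went from 0.868, 3.58, 3.72 and 6.13 to 0.533, 1.87, 0.975 and 2.08. Chromosome 3 carries a translocation in these cells, as the study's methods state.

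The 4 loops that weakened most in mid-G1, among those that changed in 1 direction at all 3 later stages and had a strength of at least 1.2 in the higher mid-G1 map, were all parallel to a structural loop. A gene-free pair of bins at chr8:47750001-47760000 and chr8:48050001-48060000 had -auxin strengths of 1.69, 3.00, 4.01 and 4.09 and +auxin strengths of 1.20, 2.32, 1.19 and 0.899, a log2 change of -2.19 in mid-G1. Its +auxin value was above 2 in ana/telophase and back near 1 in early-G1. The loop from the phosphatase gene Ppm1h at chr10:122230001-122240000 to Mon2, a gene of endosome to Golgi traffic, at chr10:122460001-122470000 had 1.16, 2.18, 2.80 and 3.24 without and 1.44, 0.687, 0.820 and 0.719 with auxin, a change of -2.17.

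The loop between the glycosyltransferase genes Galnt7 at chr8:60030001-60040000 and Galntl6 at chr8:60280001-60290000 had -auxin values of 1.4, 2.95, 4.64 and 5.55 and +auxin values of 1.14, 1.21, 1.44 and 1.35. It was stronger than its partner in mid-G1 -auxin cells (5.55 against 4.81) and shared the partner's downstream anchor, with the reverse motif match printed above. The loop from an intron of Kcnip4 to Gpr125, an adhesion receptor gene, at chr5:49780001-49790000 and chr5:50350001-50360000, had 0.860, 1.64, 3.24 and 3.47 without and 0.411, 1.10, 0.969 and 0.916 with auxin, a change of -1.92, beside a partner that changed by -3.36. In mid-G1 all 4 had +auxin values of 1.35 or less.

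The 4 loops that strengthened most, among those that changed the same way at all 3 later stages and reached a strength of 1.2 in mid-G1, were all called in +auxin cells only, and 3 were combined. The largest change was that of a loop between Atp13a3, a gene of the P-type ATPase family, at chr16:30330001-30340000 and Lsg1, a GTPase gene of ribosome assembly, at chr16:30560001-30570000. Without auxin it fell after mitosis, from 2.20 over 2.01 and 1.56 to 1.15, and with auxin it read 2.68, 2.90, 2.51 and 2.20, a log2 change of 0.93 in mid-G1. It was thus enriched in prometaphase in both treatments.

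The parallel loop among the 4 joined Ddx6, an RNA helicase gene, at chr9:44440001-44450000 with Arcn1, a subunit of the COPI coat, at chr9:44560001-44570000. It went from 1.90, 1.63, 1.51 and 1.32 without to 1.47, 1.87, 2.01 and 1.84 with auxin, a change of 0.47 in mid-G1, and its partner changed by 0.17. The others were weak throughout: a loop from the transporter gene Slc13a2 at chr11:78210001-78220000 to Sarm1 and Slc46a1 at chr11:78280001-78290000 went from 0.932 to 1.29 (0.47), and one from the starts of Limk1 and Gm10369 to Mlxipl at chr5:135150001-135175000 and chr5:135600001-135625000 from 1.04 to 1.4 (0.43).

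As a group the 35 loops called in +auxin cells only had a median log2 change of 0.21 in mid-G1. Their median strength without auxin was 1.10, 1.29, 1.39 and 1.32 at the 4 stages, and with auxin 1.17, 1.39, 1.54 and 1.66, and in mid-G1 11 (31.4%) were stronger and 2 (5.71%) weaker by that threshold, beside 8.2% and 54.1% of all loops. The 32 loops called in both treatments had medians of 2.03 without and 1.71 with auxin in mid-G1 and a median log2 change of -0.10, against -0.66 for the 687 called in -auxin cells only. These groups were formed by calls on the same maps, so the values describe them and test nothing.

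Uncategorised loops lack CTCF and cohesin peaks at 1 or both anchors by definition, sought in the same 30 kb in which the motif was searched, so that lower shares of motif matches than at CTCF loops are part of how the loops were chosen. Of the 1508 anchors 457 (30.3%, interval 28.0% to 32.7%) held a match of the core motif on either strand in the 30 kb centred on their midpoint, against 46.4% of structural and 43.6% of dual-function loop anchors, 14.5% of anchors of uncategorised loops without a CTCF loop anchor and 33.1% of all loop anchors. More anchors held a loop-facing match than one facing away: 146 upstream anchors (19.4%) had a forward and 91 (12.1%) a reverse match, and 183 downstream anchors (24.3%) had a reverse and 84 (11.1%) a forward match. Over all loops the same shares were 23.8% and 12.5% upstream and 25.0% and 12.1% downstream. Convergent matches at both anchors were found in 22 loops (2.92%), against 13.9% of structural loops, 13.3% of the partner loops and 6.92% of all loops. These shares depend on the window and the motif: 15.6% of the anchors held a match in 10 kb windows and 7.82% with a stricter motif. A match is a run of letters, not evidence that CTCF bound there.

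The change differed with the arrangement of the matches. The 22 with convergent matches had medians of 2.27 without and 1.24 with auxin in mid-G1 and a median change of -0.83, and all 22 were weaker by that threshold. The 382 with matches in other arrangements changed by -0.68 and the 350 without any by -0.54, with 79.1% and 71.1% weaker, beside 54.1% of all loops. Of the 22, 19 were parallel and 3 combined, and the part of this in the difference was not tested.

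The side on which loop-facing matches lay depended on whether a parallel loop was shorter or longer than its partner. Distances were counted from the anchor midpoint in bins of 10 kb, with positive values inside the loop. At the partner loops, 17.7% of anchors had a loop-facing match in the 10 kb just outside the midpoint and 16.7% in the 10 kb just inside. At the shorter parallel loops the share was highest, at 14.2%, between 10 and 20 kb outside their own midpoint, and between 20 and 30 kb inside it was 1.99%. At the longer ones it was 12.4% between 20 and 30 kb inside and 6.52% between 10 and 20 kb outside. In the bins from 10 to 20 kb outside and from 20 to 30 kb inside, matches facing away were found at 4.69% and 1.99% of the anchors of the shorter and at 6.21% and 3.11% of those of the longer loops. Both shifts place the matches toward the partner's anchors, from which the loops were defined.

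**Figure D5:**
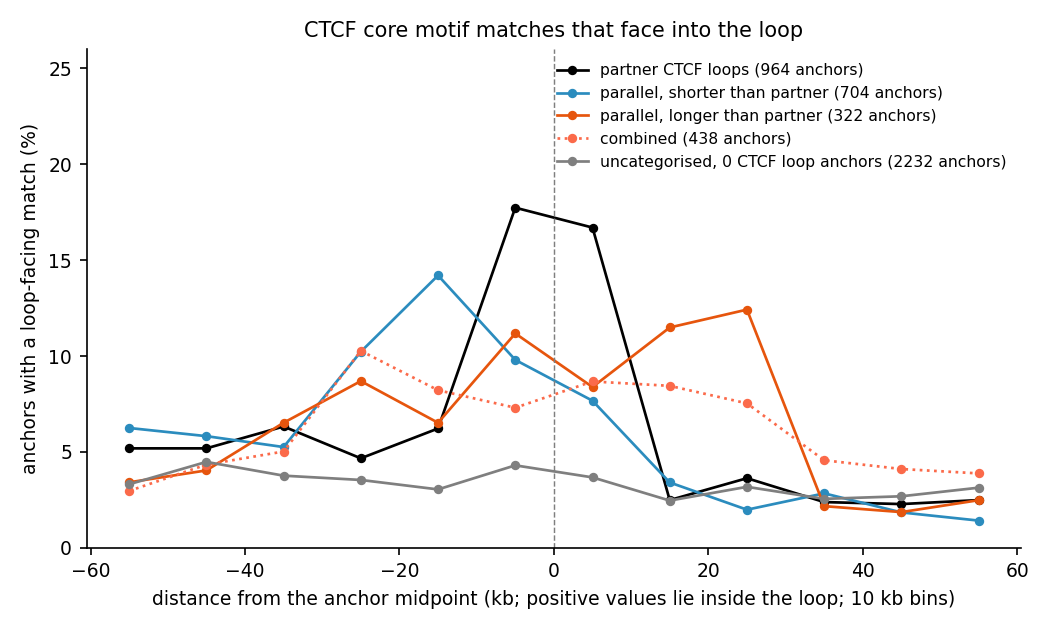
Share of anchors (%) with a loop-facing core motif match per 10 kb bin, against the distance from the anchor midpoint (kb, positive inside the loop). Partner loops peak at the midpoint (17.7%), shorter parallel loops outside it (14.2%) and longer parallel loops inside it (12.4%), while uncategorised loops without a CTCF loop anchor stay below 5%.

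Domain boundaries stood within 20 kb of the anchors about as often as at loops in general, and only this distance was compared with all loops. A boundary midpoint lay within 20 kb of 476 of the 1508 anchors (31.6%, interval 29.3% to 34.0%), against 31.4% of all loop anchors, 38.9% of structural and 14.2% of the anchors of uncategorised loops without a CTCF loop anchor. Boundaries were found at both anchors of 86 loops, at 1 anchor of 304 and at neither of 364. The 393 distinct boundaries involved had a median strength in mid-G1, the difference in insulation score ΔIS, of 1.01 without and 0.558 with auxin and a median log2 change of -0.83, against 0.826, 0.525 and -0.64 for the boundaries at the anchors of all loops, 0.885, 0.503 and -0.79 for those at structural loop anchors and 0.499, 0.332 and -0.48 for all 6376 boundaries. By the deposited clusters, which were made from the same ΔIS values, 211 (53.7%) were in cluster2, 99 (25.2%) in cluster1, 76 (19.3%) in cluster3 and 7 in cluster4, against 31.9% (cluster2), 20.4% (cluster1) and 27.1% (cluster3) of all boundaries. Among boundaries at the anchors of all loops cluster2 held 46.7%, and at those of structural loops 51.4%.

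Gene starts lay at fewer anchors than over all loops, as in the other uncategorised loops. In 539 loops (71.5%) neither summit bin held the start of a protein-coding gene, in 190 (25.2%) 1 did and in 25 (3.32%) both did, against 49.7%, 33.7% and 16.6% of all loops, which include those chosen for CREs at both anchors. The other uncategorised loops were similar, with 72.9%, 24.1% and 2.96% where no anchor lay at a CTCF loop anchor and 68.7%, 28.0% and 3.33% where 1 did, as were structural loops (68.0%, 28.5% and 3.54%). Combined loops had a start at 1 anchor in 35.2% and parallel loops in 21.1%. The median mid-G1 change was -0.64 without a start, -0.54 with 1 and -0.67 with 2. Of 22 erythroid genes looked for, among them Gata1, the erythroid master regulator, 0 had a start in a summit bin of the 754 loops and 17 had one in a summit bin of some loop among all 16370. With so short a list, nothing is read from the 0.

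At the edge of the definition, the few loops picked beside the 20 kb limit differed widely among themselves. Ties in distance were settled by loop number, and those just inside came from 547 at exactly 20 kb. These 547 had a median mid-G1 log2 change of -0.64, and 79.0% were weaker, beside 54.1% of all loops. The 3 picked just inside the limit, on chromosomes 3, 5 and 11, had mid-G1 strengths of 3.13, 2.73 and 2.20 without and 2.64, 1.45 and 1.19 with auxin. Just outside, at 22.5 kb, 3 loops at the starts of Elf3 and of Chsy1 and in Swap70 had 0.636, 4.6 and 1.4 without and 0.460, 2.62 and 0.796 with auxin. The 443 uncategorised loops whose farther anchor lay over 20 and up to 30 kb from a CTCF loop anchor had a median mid-G1 change of -0.43, and 64.3% were weaker by that threshold.

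Facts of the whole series that touch these values are few. How many contacts lie behind each loop is not given in these tables, and the precision of 1 strength value is unknown. CTCF protein and gene expression were not measured in these tables, so neither the degradation nor the erythroid identity of the cells was checked here. The loops lay on 20 chromosomes, from 8 on chromosome X to 79 on chromosome 11, where they were 6.25% of the loops.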

How the data were processed

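In situ Hi-C reads were aligned by the authors to mm9 with Bowtie2 inside a Hi-C pipeline, and replicates were merged before loops were called with a modified HICCUPS at 10 and 25 kb. Loop strengths were deposited as a ratio, contacts seen over local background, with 1 value per merged map. The deposited boundary strength ΔIS is a signal, a difference of insulation scores by the authors. Categories, calls and clusters are their labels. The 4 triptolide libraries were not used here, and the contacts per loop are not given in the sources used here.

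From these values, medians, log2 ratios without pseudocount and counts were computed with Python 3.11.15, numpy 2.4.6, pandas 2.3.3 and scipy 1.17.1, after the scripts were tested on simulated data. Loops were not treated as replicates, and no test was run. A boundary was assigned within 20 kb of an anchor midpoint. The motif was searched on both strands of mm9, with 12717 matches on 20 chromosomes, and genes are the 22380 protein-coding genes of GENCODE vM1. The loops and lists were chosen with earlier results of these data known. Named loops are the 4 strongest in mid-G1 -auxin cells, the 4 with the most negative and 4 with the most positive mid-G1 change (same direction at 3 stages, strength of at least 1.2), and 3 on either side of the 20 kb limit. The 3 convergent loops were chosen after their values were seen. Alternatives covered the 20 kb distance, summit width, partner category, chromosome 3, pseudocount, centring, summary, filters, fold, the definition of presence, and windows and motif.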

Additional observations from a re-analysis of the deposited data

How the results depend on the processing

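No paired analysis was possible because the loop and boundary tables used here hold values of merged replicates, and for the same reason no replicate could be left out. The study lists contact maps of single replicates, which were not used here. Under 18 alternative settings 203 values were recomputed. Of these, 159 moved by less than the SD over chromosomes, stayed within the counting interval or, for numbers of loops, within 1.5 times. No median log2 change reversed its sign, while counts, strengths and shares are never negative and could not reverse. With CTCF loop anchors sought within 10 kb, 116 loops were left, of which 88.8% were called without auxin only, 6.90% with auxin only and 0 were parallel, with a boundary at 35.8% of anchors. Within 15 kb there were 149, with a median mid-G1 +auxin strength of 1.49, 70.5% weaker, 86.6% called without auxin only, 8.05% with auxin only, 0 parallel, a boundary at 34.9% of anchors and convergent matches in 4.70%. Within 30 kb there were 1232, with 70.9% weaker, 88.1% called without and 6.57% with auxin only. With 10 kb summits only, 78.9% were weaker, 3.31% called with auxin only and 77.7% parallel. Against structural partners only, 80.2% were weaker and 74.2% parallel. Against dual-function partners only, 143 loops were left, 68.5% weaker and 75.5% parallel, with a match at 25.9% of anchors. Centred on all loops, the median changes were -0.15, -0.20 and -0.25 at the later stages, and 42.2% were weaker and 8.89% stronger in mid-G1. At 1.5-fold 52.0% were weaker and 0.265% stronger, against 36.7% and 2.83% of all loops. With presence as a strength of at least 1.5, the calls were 40.6%, 46.2% and 1.33%, against 30.5%, 48.6% and 4.69% of all loops. A boundary lay within 10 kb of 17.8% and within 40 kb of 54.0% of anchors, and the anchors of all loops were not counted at these distances. Motif matches fell to 15.6% of anchors and convergent ones to 0.398% of loops in 10 kb windows, to 23.1% and 1.19% in 20 kb windows, and to 7.82% and 0.265% with the stricter motif. Matches over all loops were not counted at these settings. The contacts behind single loops are not given in these tables, so what depth limits was not tested.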
